A study of Mus musculus with 57 samples.

Results

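Wild-type mouse embryos at the 8-cell stage were set against embryos at the 4-cell stage, by total RNA sequencing after removal of ribosomal RNA. The comparison covers every row of the deposited expression table that reached 1 FPKM (a fragment count divided by transcript length and by library size) in 2 of the 4 columns of these stages. That gave 12667 rows out of 59119, of which 9838 were protein coding genes. The 8-cell stage is represented by 2 columns (8-cell columns 1 and 2) and the 4-cell stage by 2 (4-cell columns 3 and 4). Per the labels, all embryos carry the genotype wild type and the strain C57BL/6, while the growth protocol of the series describes in vitro fertilization with sperm of BDF1 males and culture in G-1 PLUS medium. No treatment is given for either stage, 150 to 200 embryos were pooled per sample, and each column is therefore a mean over many embryos. GEO lists 4 samples per stage, 2 of them marked as additions, and the sources used here do not say which of them entered which column. Nothing in the labels says that the 2 columns of a stage came from separate collections. The p-values rest on the spread between columns of a stage, estimated jointly over the 8 stages of the series, and this spread may be technical.

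The 8-cell stage is the first at which the mouse embryo behaves as an epithelium. Its blastomeres flatten against each other by E-cadherin adhesion, a process called compaction, and each builds an apical domain facing outward. The apical domain and the cell contacts then feed into the Hippo kinase pathway, whose output through YAP and TEAD4 decides where the trophectoderm gene Cdx2 is used and where the pluripotency programme is kept. By the 4-cell stage the embryonic genome is active, and maternal RNA is still being cleared.

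Both stages were sequenced to a like depth. Judged by the steps between low values, and if FPKM was scaled to mapped fragments, 1 fragment in a transcript of 1 kb was worth 0.0605 and 0.0715 FPKM in 8-cell embryos, against 0.0645 and 0.0535 FPKM in 4-cell embryos. Log values correlated at a Pearson r of 0.974 between the 8-cell columns and 0.983 between the 4-cell columns, and at 0.898 to 0.910 between stages, across genes, which are not independent replicates. Small and ribosomal RNA made up 30.1% and 49.7% of all FPKM in 8-cell embryos, against 23.9% and 21% in 4-cell embryos. Mitochondrial rows took 4.23% and 2.97% in 8-cell embryos, against 13.2% and 13.8% in 4-cell embryos. Since values are shares of a library, these shifts alter the scale of all other rows, and their part in the results was not tested directly. Rescaling the columns by the median of ratios moved the differences by 0.1 upward on the log2 scale, and rescaling to the sum over long RNA (rows that are neither ribosomal, mitochondrial nor small RNA) moved them by 0.16 downward. In bulk RNA, fewer cells of a kind and less RNA per cell cannot be told apart.

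RNA levels differed widely between the stages. Of the 12667 rows, 5658 passed an adjusted p of 0.05 in limma (44.7%, against 35% of all 19692 rows tested in the stage series), 2369 of them higher in 8-cell embryos (18.7%) and 3289 lower (26%). The median log2 difference over all rows was -0.09. A called difference of at least 1 on the log2 scale was found for 839 rows upward and for 1381 rows downward. The 8-cell values did not overlap the 4-cell values in 10547 rows (83.3%), a share to be read against the 44.7% called. Protein coding rows at 1 FPKM in both columns numbered 9004 in 8-cell embryos and 9421 in 4-cell embryos. There were 394 rows that reached 1 FPKM in both 8-cell columns alone and 889 that did so in both 4-cell columns alone, and of these 308 and 714 were called, which their selection favours. The split between the directions depended on the scale: 41.9% of calls were upward as deposited, but with long-RNA scaling 1718 rows were higher and 3980 lower (30.2% upward), and with median-of-ratios scaling 2757 were higher and 2743 lower. Without 8-cell replicate 2, the column rich in small RNA, 3719 rows were called.

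**Figure D1:**
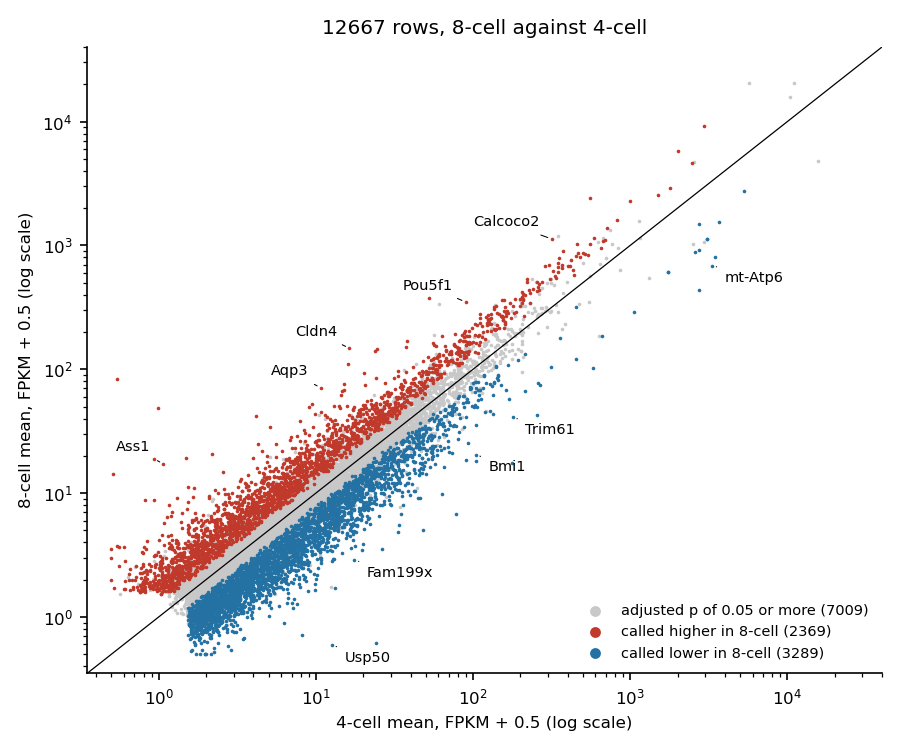
Mean level in 8-cell embryos (vertical axis) against mean level in 4-cell embryos (horizontal axis), as FPKM + 0.5 on log scales, for the 12667 rows, 1 point each, with the line of equal levels. The 2369 rows called higher lie above the line, with Ass1 and Cldn4 far from it, and the 3289 called lower lie below it, with Usp50 farthest among the labelled genes.

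Among tight junction and desmosome genes more members were higher than the background share. Of 23 tight junction and desmosome genes listed in the deposited values 11 passed the filter, and 6 were higher and 0 lower in 8-cell embryos, against 18.7% and 26% of all rows, with a median log2 difference of 0.54 against -0.09 over all rows. The count higher was 3 without 8-cell replicate 2 or 4-cell replicate 4. Cldn4, a claudin that seals tight junctions, had 141 and 153 FPKM in 8-cell embryos, against 14.2 and 17.4 FPKM in 4-cell embryos (log2 difference 3.18 ± 0.36 SE, adjusted p = 1.0e-04). That is a 9.3-fold higher mean, and the 2 groups lay far apart. Its relative Cldn7 had 39.7 and 37.1 FPKM in 8-cell embryos, against 15.8 and 14.6 FPKM in 4-cell embryos (log2 difference 1.31 ± 0.16 SE, adjusted p = 1.9e-04). Cldn6, Marveld2 (tricellulin, of contacts between 3 cells), Ocln (occludin) and Pkp2 (a desmosome plaque protein) rose by 0.74, 0.79, 0.4 and 1.06 on the log2 scale. With 1 column left out some of these calls were lost: Cldn6 (adjusted p up to 0.073) and Marveld2 (adjusted p up to 0.066) without 8-cell replicate 2 or 4-cell replicate 4, and Ocln (adjusted p up to 0.19) with any 1 of the 4 columns left out. The remaining members at 1 FPKM, which include Tjp1, a scaffold gene of the junction, did not pass: Tjp1 had 33 and 31.9 FPKM in 8-cell embryos, against 24.5 and 26 FPKM in 4-cell embryos. Dsp, which encodes desmoplakin, was below the filter at 0.907 and 0.939 FPKM in 8-cell embryos, against 0.421 and 0.461 FPKM in 4-cell embryos.

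The keratin pair of simple epithelia showed the same direction at low levels. Krt8 had 10.1 and 10.7 FPKM in 8-cell embryos, against 1.17 and 1.184 FPKM in 4-cell embryos (log2 difference 2.7 ± 0.24 SE, adjusted p = 2.6e-05). Krt18, its filament partner, had 8.44 and 8.7 FPKM in 8-cell embryos, against 0.623 and 0.971 FPKM in 4-cell embryos (log2 difference 2.82 ± 0.22 SE, adjusted p = 1.4e-05). The stages did not overlap for either gene, which held for 83.3% of all rows. Krt7, Krt19, Krt20 and Krt42, the other keratins of the list, were below the filter, with Krt7 at 0.207 and 0.203 FPKM in 8-cell embryos, against 0.0855 and 0.0607 FPKM in 4-cell embryos.

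The adhesion genes of compaction held more higher than lower calls. Of 23 adherens junction and actomyosin rows 20 passed the filter, and 6 were higher and 2 lower, against 18.7% and 26% of all rows. The count higher was 3 without 4-cell replicate 3, and the count lower 1 without 8-cell replicate 2, 4-cell replicate 4 or 4-cell replicate 3. Cdh1, which encodes E-cadherin, had 48.1 and 48.7 FPKM in 8-cell embryos, against 22.8 and 22 FPKM in 4-cell embryos (log2 difference 1.1 ± 0.16 SE, adjusted p = 4.7e-04). Its 2 columns agreed closely at each stage, and the mean was 2.16-fold higher. Nectin2, an immunoglobulin-type adhesion molecule of the same junction, had 7.77 and 7.67 FPKM in 8-cell embryos, against 1.77 and 2.35 FPKM in 4-cell embryos (log2 difference 1.69 ± 0.2 SE, adjusted p = 1.3e-04), and Nectin1 rose by 1.1, whereas Nectin3 fell, with 0.932 and 0.908 FPKM in 8-cell embryos, against 1.81 and 1.99 FPKM in 4-cell embryos. The catenins that tie E-cadherin to actin did not pass: Ctnnb1 had 34.3 and 40.8 FPKM in 8-cell embryos, against 31.1 and 42.6 FPKM in 4-cell embryos, and Ctnna1 had 53.4 and 52.8 FPKM in 8-cell embryos, against 37.3 and 37.8 FPKM in 4-cell embryos. Among the myosins, Myh10 (heavy chain of non-muscle myosin IIB) rose by 1.19. This call was lost for Myh10 (adjusted p up to 0.073) with any 1 of the 4 columns left out.

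In the cytoskeleton, actin genes and tubulins were listed separately. Of 27 actin cytoskeleton genes that passed the filter, 14 were higher and 2 lower, against 18.7% and 26% of all rows. Their median was 0.7, and with long-RNA scaling 12 were higher. Lower members numbered 1 without 8-cell replicate 1 or 4-cell replicate 4. The cytoplasmic actins were among the most abundant of those that rose: Actg1 had 141 and 139 FPKM in 8-cell embryos, against 23.9 and 22.9 FPKM in 4-cell embryos (log2 difference 2.56 ± 0.19 SE, adjusted p = 1.2e-05), and Actb had 186 and 183 FPKM in 8-cell embryos, against 55.4 and 70.4 FPKM in 4-cell embryos (log2 difference 1.56 ± 0.18 SE, adjusted p = 1.2e-04). Tagln2 (an actin-binding transgelin) and Tmsb10 (a thymosin that binds actin monomers) rose by 1.46 and 1.44. Vil1, which encodes the microvillus bundler villin, fell, with 2.8 and 1.69 FPKM in 8-cell embryos, against 5.19 and 5.17 FPKM in 4-cell embryos. Of 14 tubulins and microtubule regulators 1 was higher and 0 lower: Tuba1a rose by 0.64. The call was lost for Tuba1a (adjusted p up to 0.053) without 4-cell replicate 3. With long-RNA scaling 2 members of the list were lower.

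**Figure D2:**
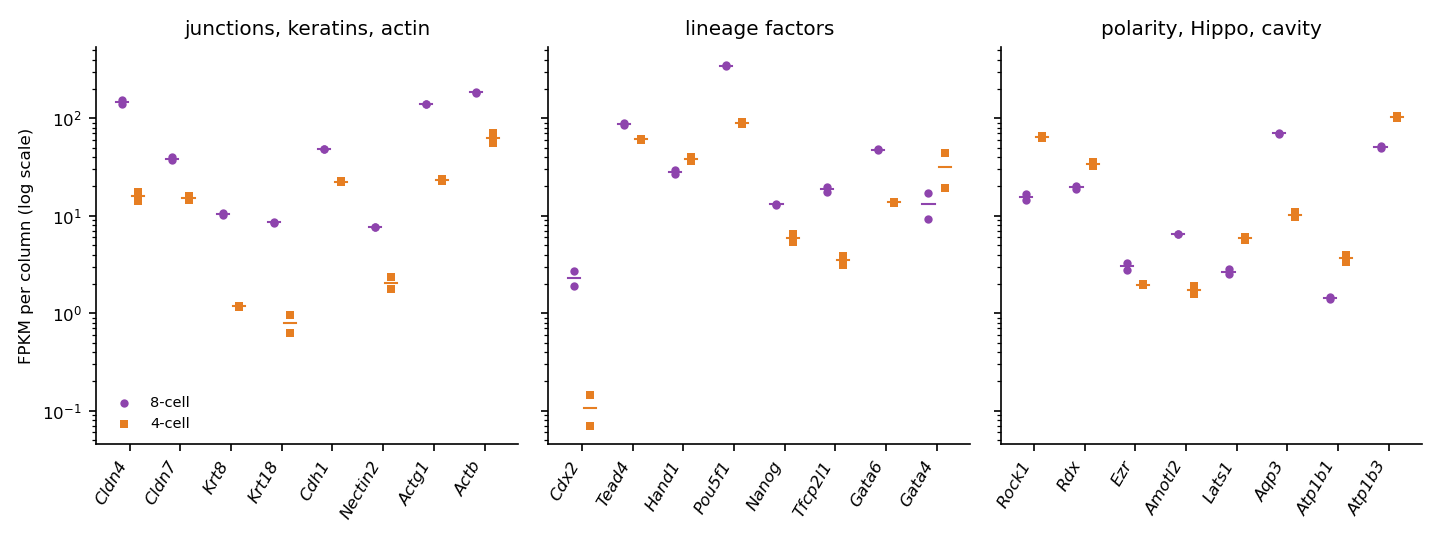
FPKM of 24 genes on a log axis, 1 point per column and a short line at the mean, with 8-cell embryos (circles) left of 4-cell embryos (squares). The junction, keratin and actin genes are higher in both 8-cell columns than in both 4-cell columns, Rock1, Rdx, Lats1, Atp1b1 and Atp1b3 are lower, and Gata4 shows the widest spread between columns of a stage.

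To show the regulatory sequence beside these values, promoter windows of 300 bases (250 before and 50 after the annotated start, RefSeq, GRCm38.p6) are printed 5′ to 3′ on the gene's strand for 4 genes that rose and 2 that fell. They are Cldn4 at chr5:134946885-134947184 (minus strand), Krt8 at chr15:102004293-102004592 (minus strand), Aqp3 at chr4:41098134-41098433 (minus strand), Amotl2 at chr9:102717554-102717853 (plus strand), Bmi1 at chr2:18676768-18677067 (plus strand) and Atp1b1 at chr1:164458306-164458605 (minus strand). Capitals mark every match on either strand to 6 short motifs. The motif searched for TEAD factors was CATTCC. The motif of GATA factors was written as AGATAA. For NFY the letters looked for were CCAAT. Factors of the SP and KLF families were represented by GGGCGG. The nuclear receptors of the NR5A family were represented by TCAAGG. For ETS factors the search used CCGGAA.
Cldn4: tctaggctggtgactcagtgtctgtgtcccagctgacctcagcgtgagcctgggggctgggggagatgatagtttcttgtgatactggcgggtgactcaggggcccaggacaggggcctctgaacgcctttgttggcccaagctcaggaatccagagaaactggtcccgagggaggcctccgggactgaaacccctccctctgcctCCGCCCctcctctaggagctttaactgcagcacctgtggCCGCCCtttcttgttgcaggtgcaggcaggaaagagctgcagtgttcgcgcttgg
Krt8: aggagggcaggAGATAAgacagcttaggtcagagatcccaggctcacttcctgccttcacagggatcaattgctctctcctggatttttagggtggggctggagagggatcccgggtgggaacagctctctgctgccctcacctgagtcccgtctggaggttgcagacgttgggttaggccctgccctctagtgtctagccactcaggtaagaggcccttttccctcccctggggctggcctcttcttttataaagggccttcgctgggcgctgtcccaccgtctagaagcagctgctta
Aqp3: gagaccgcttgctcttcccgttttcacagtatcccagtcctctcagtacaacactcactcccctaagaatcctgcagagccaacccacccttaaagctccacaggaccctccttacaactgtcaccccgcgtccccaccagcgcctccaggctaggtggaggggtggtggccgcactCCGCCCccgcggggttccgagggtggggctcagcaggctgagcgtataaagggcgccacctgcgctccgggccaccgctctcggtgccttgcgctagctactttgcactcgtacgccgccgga
Amotl2: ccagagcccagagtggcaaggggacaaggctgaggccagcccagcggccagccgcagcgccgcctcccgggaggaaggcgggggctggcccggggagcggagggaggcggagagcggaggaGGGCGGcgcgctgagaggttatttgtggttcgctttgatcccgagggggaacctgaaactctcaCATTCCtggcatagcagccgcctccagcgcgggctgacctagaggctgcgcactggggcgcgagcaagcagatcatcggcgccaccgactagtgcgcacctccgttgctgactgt
Bmi1: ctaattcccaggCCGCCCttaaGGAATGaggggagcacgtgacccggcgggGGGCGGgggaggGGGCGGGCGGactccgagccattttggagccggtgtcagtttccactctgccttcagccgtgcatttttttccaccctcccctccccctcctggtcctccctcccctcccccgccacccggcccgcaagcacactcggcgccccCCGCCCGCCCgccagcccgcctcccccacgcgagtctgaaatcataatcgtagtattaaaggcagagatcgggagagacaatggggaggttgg
Atp1b1: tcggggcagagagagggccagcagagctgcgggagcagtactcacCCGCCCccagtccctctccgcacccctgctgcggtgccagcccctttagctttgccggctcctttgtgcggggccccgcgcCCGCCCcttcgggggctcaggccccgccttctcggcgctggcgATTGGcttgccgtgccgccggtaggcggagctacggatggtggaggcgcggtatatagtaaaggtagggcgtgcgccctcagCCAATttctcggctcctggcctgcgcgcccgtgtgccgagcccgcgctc
Amotl2 and Bmi1 each hold a TEAD match, Krt8 a GATA match, Atp1b1 the CCAAT letters at 2 places, and 5 of the 6 windows, all but that of Krt8, hold the SP and KLF letters. Over protein coding genes with a window (7936 of 9838), the TEAD letters stood in 12.4% of windows of genes called higher, 10.1% of those called lower and 11.3% of all. The shares for GATA were 7.54%, 5.6% and 6.16%, for NFY 39.7%, 40.8% and 40.3%, and for SP and KLF 64.0%, 66.6% and 65.9%. Those for NR5A were 13.3%, 11.3% and 12.0%, and those for ETS 27.9%, 26.4% and 31.7%. The shares are descriptions of these letters in the first listed window of each gene, and the median window held 19 CG pairs for genes called higher, 23 for those called lower and 22 for all.

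Of 21 apicobasal polarity genes that passed the filter, 3 were higher and 6 lower, shares near the 18.7% and 26% of all rows, with a median of -0.15. The 3 higher calls (Ezr, Scrib and Prkcz, at 0.52, 0.5 and 0.41) numbered 0 or 1 with any 1 of the 4 columns left out, and with long-RNA scaling 0 were higher and 8 lower. Ezr encodes the apical membrane linker ezrin, Scrib a basolateral scaffold, and Prkcz an atypical protein kinase C. Rock1, a kinase of actomyosin contraction, had 16.9 and 14.7 FPKM in 8-cell embryos, against 66.2 and 63.4 FPKM in 4-cell embryos (log2 difference -2.01 ± 0.17 SE, adjusted p = 2.3e-05), the largest fall of the list. Rdx (radixin, a relative of ezrin) had 20.2 and 19 FPKM in 8-cell embryos, against 35.5 and 32.6 FPKM in 4-cell embryos (log2 difference -0.78 ± 0.12 SE, adjusted p = 5.1e-04). Mpp5 (PALS1, of the Crumbs complex), Slc9a3r1 (an ezrin-binding scaffold), Pard3 and Llgl2 fell, with log2 differences of -1.21, -0.91, -0.58 and -0.42. Calls lost with a column left out were Ezr (adjusted p up to 0.16) without 8-cell replicate 2, 4-cell replicate 4 or 4-cell replicate 3, Scrib (adjusted p up to 0.07) without 8-cell replicate 1 or 4-cell replicate 4, and Prkcz (adjusted p up to 0.19), Pard3 (adjusted p up to 0.094) and Llgl2 (adjusted p up to 0.15) with any 1 of the 4 columns left out. Pard6b, the PAR6 gene needed for the apical domain, had 7.68 and 8.77 FPKM in 8-cell embryos, against 6.9 and 6.13 FPKM in 4-cell embryos and was not called.

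Of 19 Hippo pathway genes that passed the filter 5 were higher and 6 lower, shares near those of all rows, and the count lower was 2 without 8-cell replicate 2 or 4-cell replicate 4. Higher were the junction-bound angiomotins Amotl2 and Amot: Amotl2 had 6.47 and 6.46 FPKM in 8-cell embryos, against 1.58 and 1.89 FPKM in 4-cell embryos (log2 difference 1.65 ± 0.13 SE, adjusted p = 1.3e-05), and Amot rose by 0.77. Vgll4, which competes with YAP for TEAD, had 6.36 and 5.83 FPKM in 8-cell embryos, against 1.63 and 1.21 FPKM in 4-cell embryos (log2 difference 1.79 ± 0.17 SE, adjusted p = 3.3e-05). The kinases split, since Stk4 and Lats2 rose by 0.87 and 0.66, and Lats1 had 2.82 and 2.5 FPKM in 8-cell embryos, against 5.68 and 6.13 FPKM in 4-cell embryos (log2 difference -1.02 ± 0.12 SE, adjusted p = 1.6e-04). Taok1, an upstream kinase, Mob1b, Nf2 (merlin), Wwc2 and Limd1 were also lower, with log2 differences of -1.4, -1.0, -0.76, -0.79 and -1.0. Several calls were lost with a column left out: Lats2 (adjusted p up to 0.054), Mob1b (adjusted p up to 0.059) and Limd1 (adjusted p up to 0.15) without 8-cell replicate 2 or 4-cell replicate 4, and Taok1 (adjusted p up to 0.078) and Wwc2 (adjusted p up to 0.081) with any 1 of the 4 columns left out. Yap1, the co-activator itself, had 27.6 and 24.3 FPKM in 8-cell embryos, against 45 and 46.9 FPKM in 4-cell embryos and did not pass (log2 difference -0.82 ± 0.4 SE, adjusted p = 0.14).

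Among trophectoderm transcription factors, Cdx2 appeared at a low level. It had 1.89 and 2.72 FPKM in 8-cell embryos, against 0.0698 and 0.146 FPKM in 4-cell embryos (log2 difference 2.19 ± 0.2 SE, adjusted p = 2.7e-05), and both 4-cell values were near 0. At the depth inferred above, the 4-cell values rest on few fragments. Tead4, the TEAD factor needed for trophectoderm, was already abundant and had 85.8 and 88.6 FPKM in 8-cell embryos, against 59.9 and 62 FPKM in 4-cell embryos (log2 difference 0.51 ± 0.12 SE, adjusted p = 0.007). Hand1 fell, with 29.5 and 27 FPKM in 8-cell embryos, against 40.3 and 36.9 FPKM in 4-cell embryos (log2 difference -0.44 ± 0.13 SE, adjusted p = 0.02), and Grhl2, an epithelial Grainyhead factor, fell as well, with 3.72 and 3.87 FPKM in 8-cell embryos, against 10.2 and 11.1 FPKM in 4-cell embryos. With Grhl1 these made 2 higher and 3 lower of 7 members that passed, against 18.7% and 26% of all rows. With median-of-ratios scaling 3 were higher and 1 lower. With long-RNA scaling 1 was higher and 3 lower, and Tead4 was not called. The count lower was 1 without 8-cell replicate 2 or 4-cell replicate 3. The calls lost were those of Hand1 (adjusted p up to 0.12) without 8-cell replicate 2 or 4-cell replicate 3, and Grhl2 (adjusted p up to 0.14) with any 1 of the 4 columns left out. The other 11 of the 18 members in the table did not pass the filter, among them Gata3 at 0.552 and 0.217 FPKM in 8-cell embryos, against 0.232 and 0.271 FPKM in 4-cell embryos, and Eomes at 0.957 and 0.683 FPKM in 8-cell embryos, against 0.26 and 0.282 FPKM in 4-cell embryos.

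Pluripotency genes were more often higher than lower. Of 20 that passed the filter 9 were higher and 2 lower, against 18.7% and 26% of all rows, with a median of 0.51, and with long-RNA scaling 8 were higher. Pou5f1, which encodes OCT4, had 344 and 352 FPKM in 8-cell embryos, against 87.5 and 91.1 FPKM in 4-cell embryos (log2 difference 1.96 ± 0.15 SE, adjusted p = 1.4e-05). Nanog had 13.3 and 13 FPKM in 8-cell embryos, against 5.44 and 6.54 FPKM in 4-cell embryos (log2 difference 1.08 ± 0.15 SE, adjusted p = 3.0e-04). Tfcp2l1, a factor of the naive state, had 17.5 and 20.0 FPKM in 8-cell embryos, against 3.17 and 3.83 FPKM in 4-cell embryos (log2 difference 2.27 ± 0.15 SE, adjusted p = 7.0e-06). All 3 were separated between the stages, as were 83.3% of all rows, and Pou5f1 was the most abundant of the 3. Utf1, Tbx3, Zfp42, Esrrb, Lin28a and Tdgf1 rose by 1.83, 1.48, 1.22, 1.0, 0.9 and 0.53. Tet1, a 5-methylcytosine dioxygenase, had 8.12 and 7.96 FPKM in 8-cell embryos, against 19 and 19.8 FPKM in 4-cell embryos (log2 difference -1.22 ± 0.2 SE, adjusted p = 9.3e-04), and Prdm14 fell, at -0.58. The count lower was 1 without 8-cell replicate 1, 4-cell replicate 4 or 4-cell replicate 3, and calls lost with a column left out were Prdm14 (adjusted p up to 0.11) without 8-cell replicate 1, 4-cell replicate 4 or 4-cell replicate 3, and Tdgf1 (adjusted p up to 0.062) without 4-cell replicate 4. Dppa3 (Stella), the most abundant member, had 1600.4 and 1573 FPKM in 8-cell embryos, against 1123 and 1142 FPKM in 4-cell embryos, and did not pass. Sox2 was below the filter at 0.63 and 0.782 FPKM in 8-cell embryos, against 1.17 and 0.932 FPKM in 4-cell embryos.

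Primitive endoderm genes, among them Gata6, Gata4 and basement membrane genes, held calls in both directions. Of 20 members 12 passed the filter, and 7 were higher (5 with long-RNA scaling) and 2 lower, against 18.7% and 26% of all rows. Those lower numbered 1 without 8-cell replicate 2 or 4-cell replicate 3. Gata6, the factor that opposes Nanog in the inner cell mass, had 48.4 and 47.4 FPKM in 8-cell embryos, against 14 and 13.6 FPKM in 4-cell embryos (log2 difference 1.76 ± 0.1 SE, adjusted p = 4.4e-06), a level above that of Nanog at both stages. Lama5, Col4a1 and Col4a2, which encode laminin and type IV collagen chains, rose by 1.36, 1.3 and 0.8. Amn and Cubn, the amnionless and cubilin receptor pair, rose by 0.89 and 0.51. Col4a2, at 0.979 and 0.894 FPKM in 4-cell embryos, passed the filter through the 8-cell columns alone, which favours a higher call. Cubn was also low in 4-cell embryos, at a mean of 0.67 FPKM. Gata4 went the other way, with 17.3 and 9.32 FPKM in 8-cell embryos, against 44.1 and 19.2 FPKM in 4-cell embryos (log2 difference -1.17 ± 0.36 SE, adjusted p = 0.027), and the columns of each stage differed almost as much as the stages. Nid2, another basement membrane gene, fell as well, at -1.14, and the laminin genes Lamb1 and Lamc1, at 0.08 and 0.87, were not called. With a column left out, calls were lost for Gata4 (adjusted p up to 0.24) without 8-cell replicate 2 or 4-cell replicate 3, Col4a2 (adjusted p up to 0.063) without 8-cell replicate 1, and Cubn (adjusted p up to 0.097) without 8-cell replicate 1, 4-cell replicate 4 or 4-cell replicate 3. Sox17, Sox7, Foxa2 and Hnf4a, which define later endoderm, were near 0 in all 4 columns, the highest value being 0.0841 FPKM (Hnf4a, 4-cell column 4).

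Of the pumps and channels that later fill the blastocyst cavity, only part rose. Of 16 members 9 passed the filter, with 2 higher and 4 lower, against 18.7% and 26% of all rows. The count higher was 1 with any 1 of the 4 columns left out. Aqp3, a water and glycerol channel, had 69.7 and 71 FPKM in 8-cell embryos, against 9.64 and 10.8 FPKM in 4-cell embryos (log2 difference 2.72 ± 0.14 SE, adjusted p = 2.1e-06). The beta subunit genes of the sodium pump fell: Atp1b3 had 52.1 and 49.4 FPKM in 8-cell embryos, against 101 and 105 FPKM in 4-cell embryos (log2 difference -1.02 ± 0.11 SE, adjusted p = 6.4e-05), and Atp1b1, the form of the blastocyst, had 1.45 and 1.39 FPKM in 8-cell embryos, against 3.94 and 3.39 FPKM in 4-cell embryos (log2 difference -1.11 ± 0.15 SE, adjusted p = 3.6e-04). Aqp8, Scnn1a and Scnn1b were listed at 0 in all 4 columns.

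Signalling pathways held calls in both directions. Over all rows 18.7% were higher and 26% lower, and the growth factor and LIF list below was near these shares. In the FGF pathway 2 of 16 members that passed were higher and 5 lower, shares near the 18.7% and 26% of all rows. The count higher was 1 without 8-cell replicate 2, 8-cell replicate 1 or 4-cell replicate 3, and the count lower 3 without 4-cell replicate 4 or 4-cell replicate 3. The ligand gene Fgf4 had 10.7 and 11 FPKM in 8-cell embryos, against 28.3 and 28.1 FPKM in 4-cell embryos (log2 difference -1.34 ± 0.1 SE, adjusted p = 1.3e-05), with columns that agreed closely. Its receptors Fgfr2 and Fgfr3 rose by 0.8 and 0.6. The feedback inhibitor Spry4 had 12.7 and 10.3 FPKM in 8-cell embryos, against 37.4 and 37.3 FPKM in 4-cell embryos (log2 difference -1.66 ± 0.32 SE, adjusted p = 0.0023), and Sos1 and the inhibitor Spred1 fell as well, with log2 differences of -0.92 and -0.71. In the Wnt pathway 1 of 13 was higher (2 with median-of-ratios scaling) and 7 lower: the acyltransferase Porcn, needed for Wnt secretion, rose by 1.09, and Gsk3b, Axin2, Apc (of the beta-catenin destruction complex) and the receptor Fzd7 had log2 differences of -1.25, -1.15, -1.05 and -1.08. The BMP target Id3 had 49.2 and 54.8 FPKM in 8-cell embryos, against 8.83 and 9.04 FPKM in 4-cell embryos (log2 difference 2.48 ± 0.16 SE, adjusted p = 7.5e-06), the largest rise of the Nodal, BMP and TGF-beta list, in which 3 of 15 were higher and 4 lower, again near the shares of all rows. These were 1 without 8-cell replicate 1 or 4-cell replicate 4 for the higher and 2 without 8-cell replicate 2, 4-cell replicate 4 or 4-cell replicate 3 for the lower. This list had 3 higher and 2 lower with median-of-ratios scaling, and 2 higher and 7 lower with long-RNA scaling. Of 10 growth factor and LIF pathway genes 2 were higher and 3 lower (the lower 1 without 8-cell replicate 2): Erbb2 and Pdgfa rose by 1.24 and 1.22, and the LIF receptor subunit Il6st and its effector Stat3 fell, at -0.98 and -0.92. Among the genes named here, calls were lost with a column left out for Fgfr3 (adjusted p up to 0.14) without 8-cell replicate 2, 8-cell replicate 1 or 4-cell replicate 3, Spred1 (adjusted p up to 0.12) without 8-cell replicate 2, 4-cell replicate 4 or 4-cell replicate 3, Apc (adjusted p up to 0.065) without 8-cell replicate 1, Il6st (adjusted p up to 0.051) without 8-cell replicate 2, and Stat3 (adjusted p up to 0.12) without 8-cell replicate 2 or 4-cell replicate 4.

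Ribosomal protein genes rose broadly, while over all rows 18.7% were called higher and 26% lower. Of 84 cytosolic ribosomal protein genes that passed the filter, 65 were higher and 0 lower, with a median of 0.84, and 57 were higher with long-RNA scaling. Their summed level was 31613 and 32496 FPKM in 8-cell embryos, against 17805 and 17555 FPKM in 4-cell embryos. Rpl8, of the large subunit, had 1025 and 1042 FPKM in 8-cell embryos, against 462 and 458 FPKM in 4-cell embryos (log2 difference 1.17 ± 0.15 SE, adjusted p = 1.9e-04), and Rps12, of the small subunit, had 260.0 and 283 FPKM in 8-cell embryos, against 122 and 128 FPKM in 4-cell embryos (log2 difference 1.12 ± 0.17 SE, adjusted p = 6.7e-04). Translation factors followed with 16 higher and 1 lower of 39, a count higher that was 8 without 8-cell replicate 2 and 6 without 4-cell replicate 4 and 10 with long-RNA scaling, where 3 were lower. Eef1a1, the elongation factor that delivers aminoacyl-tRNA, had 1385 and 1372 FPKM in 8-cell embryos, against 743 and 681 FPKM in 4-cell embryos (log2 difference 0.95 ± 0.18 SE, adjusted p = 0.0022). Eif5b, a subunit-joining factor and the 1 lower member, fell, at -0.58. This call was lost for Eif5b (adjusted p up to 0.13) with any 1 of the 4 columns left out. Assembly factors of the nucleolus were mostly not called: 4 of 38 were higher and 0 lower, the count higher being 0 or 1 with any 1 of the 4 columns left out, and with long-RNA scaling 0 were higher and 1 lower. Many ribosomal protein genes have near-identical processed pseudogenes, so reads may be shared between copies.

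Nuclear and mitochondrial genes of respiration moved in opposite directions, while over all rows 18.7% were called higher and 26% lower. Of 73 nuclear genes of the respiratory chain that passed the filter, 40 were higher and 1 lower, with a median of 0.59. That count was 20 or 21 with any 1 of the 4 columns left out, and 26 with long-RNA scaling. The count lower was 0 without 8-cell replicate 1, 4-cell replicate 4 or 4-cell replicate 3. Atp5d and Atp5g2, of ATP synthase, rose by 1.14 and 1.11. All 13 protein genes of the mitochondrial genome passed the filter, and 0 were higher and 11 lower, with a median of -1.52; 8 were lower with median-of-ratios scaling. Their summed level was 10575 and 9952 FPKM in 8-cell embryos, against 28914 and 28529 FPKM in 4-cell embryos. The count lower was 6 without 8-cell replicate 2, 4-cell replicate 4 or 4-cell replicate 3. The ATP synthase gene mt-Atp8 had 477 and 394 FPKM in 8-cell embryos, against 2757 and 2726 FPKM in 4-cell embryos (log2 difference -2.66 ± 0.57 SE, adjusted p = 0.0047), and mt-Atp6, which overlaps it, had 816 and 559 FPKM in 8-cell embryos, against 3389 and 3272 FPKM in 4-cell embryos (log2 difference -2.3 ± 0.42 SE, adjusted p = 0.0018). The complex I gene mt-Nd4 had 297 and 280.4 FPKM in 8-cell embryos, against 1066 and 1059.7 FPKM in 4-cell embryos (log2 difference -1.88 ± 0.49 SE, adjusted p = 0.013). The call was lost for mt-Nd4 (adjusted p up to 0.066) without 8-cell replicate 2, 4-cell replicate 4 or 4-cell replicate 3. The 4-cell level of mt-Atp6 was high within the stage series, at a mean of 3330.2 FPKM, against 113 FPKM in late 2-cell and 1364 FPKM in morula embryos. Across the 16 columns of the stage series the mitochondrial share of FPKM ran from 0.317% to 19.2%, the highest in late 2-cell column 1. Both late 2-cell columns lay above the 13.2% and 13.8% of 4-cell embryos, so mt-Atp6 does not stand for this share. Columns of 1 stage could differ widely, with 0.317% and 5.56% in samples labelled MII and 2.75% and 0.46% in zygotes. Blastocyst columns were close, at 8.17% and 7.97%. Where columns differ so, the share cannot be read as a stage effect.

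Most other metabolic lists held more higher than lower calls, while over all rows 18.7% were called higher and 26% lower. Cholesterol synthesis and uptake genes were mixed, with 5 higher and 3 lower of 23 and a median of 0.08. With long-RNA scaling 5 of these were higher and 5 lower. Pyruvate oxidation and citric acid cycle genes had 9 higher and 0 lower of 22, pentose phosphate and nucleotide synthesis genes 8 and 0 of 22, and glycolysis genes 8 and 1 of 17. The glycolysis count was 4 without 8-cell replicate 1 or 4-cell replicate 3 and 5 without 4-cell replicate 4, and the nucleotide count 5 without 4-cell replicate 4. With long-RNA scaling the citric acid cycle list had 6 higher and 0 lower, the nucleotide list 6 and 1, and the glycolysis list 5 and 2. The glycolysis count lower was 2 without 8-cell replicate 1. Pdha1, of pyruvate dehydrogenase, had 121 and 126 FPKM in 8-cell embryos, against 59.1 and 58 FPKM in 4-cell embryos (log2 difference 1.07 ± 0.13 SE, adjusted p = 1.5e-04). Hk2, a hexokinase, had 4.78 and 4.76 FPKM in 8-cell embryos, against 0.739 and 1.07 FPKM in 4-cell embryos (log2 difference 1.92 ± 0.2 SE, adjusted p = 6.0e-05). Its relative Hk1 and the dehydrogenase Ldha rose by 1.2 and 1.34, whereas Pfkl fell, at -0.57. Tyms, which makes thymidylate, and Gart, of purine synthesis, rose by 1.08 and 0.84. In fatty acid metabolism 11 of 23 were higher and 3 lower, with 7 without 8-cell replicate 2 or 4-cell replicate 4 for the higher, 1 without 8-cell replicate 1 or 4-cell replicate 4 for the lower. With long-RNA scaling 7 were higher and 5 lower. The desaturase Scd2 rose by 1.8 and the acyl-CoA synthetase Acsl4 fell, at -0.98. Amino acid transporters were higher in 6 of 11 and lower in 2, the higher count being 3 without 8-cell replicate 2, 8-cell replicate 1 or 4-cell replicate 3 and the lower 1 with any 1 of the 4 columns left out. Slc3a2, the heavy chain shared by several transporters, had 81.7 and 81.3 FPKM in 8-cell embryos, against 36.1 and 35.1 FPKM in 4-cell embryos (log2 difference 1.184 ± 0.25 SE, adjusted p = 0.0041), and the glycine carrier Slc6a9 fell, at -1.02. This call was lost for Slc6a9 (adjusted p up to 0.17) with any 1 of the 4 columns left out. The iron list had 3 higher and 0 lower of 6 (1 with any 1 of the 4 columns left out, and 1 with long-RNA scaling), led by the ferrireductase gene Steap3, which had 13.7 and 13.4 FPKM in 8-cell embryos, against 3.24 and 3.14 FPKM in 4-cell embryos.

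Protein turnover and folding genes were called mostly in the higher direction, while over all rows 18.7% were called higher and 26% lower. Of 35 proteasome genes 15 were higher and 0 lower (7 without 8-cell replicate 2 and 8 without 4-cell replicate 4 or 4-cell replicate 3), and 10 were higher with long-RNA scaling. Psmb6 and Psmd8 rose by 1.03 and 0.99. Of 24 lysosome genes 12 were higher (7 without 8-cell replicate 2, 8-cell replicate 1 or 4-cell replicate 3) and 2 lower (1 with any 1 of the 4 columns left out), and 9 and 4 with long-RNA scaling; the membrane protein gene Lamp2 fell, at -0.88. Of 24 chaperone genes 7 were higher (4 without 8-cell replicate 1 or 4-cell replicate 4) and 2 lower (0 or 1 with any 1 of the 4 columns left out), but 4 higher and 5 lower with long-RNA scaling. Hspa8, the constitutive HSP70, had 728 and 848 FPKM in 8-cell embryos, against 337 and 365 FPKM in 4-cell embryos (log2 difference 1.16 ± 0.23 SE, adjusted p = 0.0032). Of the p53 list 5 of 15 were higher and 2 lower, but the count lower was 0 with any 1 of the 4 columns left out and 0 with median-of-ratios scaling. Among its higher members was Phlda3, an AKT inhibitor induced by p53, with 5.68 and 5.81 FPKM in 8-cell embryos, against 1.2 and 1.24 FPKM in 4-cell embryos (log2 difference 1.86 ± 0.1 SE, adjusted p = 3.5e-06).

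Histone genes of S phase were higher in more than the background share. Of 59 core histone genes 35 were higher and 1 lower, with a median of 0.85, and 28 were higher with long-RNA scaling; the count was 16 without 8-cell replicate 1 and 20 without 4-cell replicate 3. Hist1h2be had 42.3 and 35.9 FPKM in 8-cell embryos, against 10.4 and 13.4 FPKM in 4-cell embryos (log2 difference 1.68 ± 0.22 SE, adjusted p = 2.7e-04), and Hist2h3c2, an H3 gene, had 111 and 77.5 FPKM in 8-cell embryos, against 37.7 and 36.2 FPKM in 4-cell embryos (log2 difference 1.32 ± 0.18 SE, adjusted p = 3.7e-04). These genes are near-identical copies in clusters, so reads may be divided between them, and most of their RNAs lack a poly(A) tail, which total RNA libraries still capture. Hist3h2ba was the exception, at -1.52. Over all rows 18.7% were higher and 26% lower, near the share higher of DNA replication genes and the share lower of cyclins and mitotic regulators. DNA replication genes had 7 higher and 3 lower of 34, but 3 higher and 7 lower with long-RNA scaling, and the higher count was 2 to 4 with any 1 of the 4 columns left out, the lower 1 without 8-cell replicate 2 or 4-cell replicate 3. Cyclins and mitotic regulators had 2 higher and 6 lower of 26: Ccnd1 (cyclin D1) had 7.39 and 6.44 FPKM in 8-cell embryos, against 2.13 and 2.1 FPKM in 4-cell embryos (log2 difference 1.5 ± 0.15 SE, adjusted p = 5.4e-05), Cdk1 rose by 0.6, and Ccne2 (cyclin E2) fell, at -1.179. The count lower was 3 without 4-cell replicate 4, 3 with median-of-ratios scaling and 8 with long-RNA scaling.

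Chromatin genes held calls in both directions. In the Polycomb and H3K4 methylation list 5 of 22 were higher and 6 lower, shares near the 18.7% and 26% of all rows, and 2 were higher with long-RNA scaling. The higher numbered 1 to 3 with any 1 of the 4 columns left out, and the lower 3 without 8-cell replicate 1 or 4-cell replicate 3. Bmi1, a subunit of Polycomb repressive complex 1, had 21.5 and 18.4 FPKM in 8-cell embryos, against 105 and 103 FPKM in 4-cell embryos (log2 difference -2.36 ± 0.19 SE, adjusted p = 1.4e-05). That is a 5.21-fold higher mean in 4-cell embryos, among the largest falls of coding genes with a mean of at least 5 FPKM in the higher stage. Rnf2, Ezh1 and Kdm5a also fell, at -0.75, -0.7 and -0.77, while Jarid2, Eed and Ash2l rose by 1.23, 0.62 and 0.69. The acetyltransferase gene Ep300 had 12.4 and 12.4 FPKM in 8-cell embryos, against 32.7 and 32.7 FPKM in 4-cell embryos (log2 difference -1.37 ± 0.26 SE, adjusted p = 0.0025). H2afy, which encodes the variant macroH2A1, had 3.29 and 4.06 FPKM in 8-cell embryos, against 0.487 and 0.515 FPKM in 4-cell embryos (log2 difference 2.05 ± 0.18 SE, adjusted p = 2.8e-05). The de novo DNA methyltransferase genes Dnmt3b and Dnmt3a and their cofactor Dnmt3l rose by 0.94, 0.84 and 0.83, and the H3K9 methyltransferase genes Suv39h1 and Suv39h2 fell, at -0.77 and -1.09. That list had 6 higher and 3 lower of 18, but 3 higher and 4 lower with long-RNA scaling, and its higher count was 3 without 8-cell replicate 1 or 4-cell replicate 4. Across both lists, calls lost with a column left out were Dnmt3a (adjusted p up to 0.3) without 8-cell replicate 2, 8-cell replicate 1 or 4-cell replicate 4, Eed (adjusted p up to 0.12) with any 1 of the 4 columns left out, Ash2l (adjusted p up to 0.058) without 4-cell replicate 4, and Rnf2 (adjusted p up to 0.089) without 8-cell replicate 1 or 4-cell replicate 3.

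Genes known from the 2-cell stage and the oocyte were more often lower than higher. Of 34 genes of the 2-cell stage that passed the filter 0 were higher and 26 lower, with a median of -1.51. With median-of-ratios scaling 1 was higher and 23 lower. Of 38 maternal oocyte genes 1 was higher and 22 lower, with a median of -0.8. Over all rows 18.7% were higher and 26% lower. Some 2-cell genes passed the filter through the 4-cell columns alone, which favours a lower call. Examples are Zscan4b (means of 0.33 FPKM in 8-cell and 1.64 FPKM in 4-cell embryos) and Usp17le (0.45 and 1.86 FPKM). Many 2-cell genes belong to near-identical families. Among maternal genes, Oog1, an oogenesin, had 10.8 and 8.96 FPKM in 8-cell embryos, against 39.8 and 42.9 FPKM in 4-cell embryos (log2 difference -2.02 ± 0.19 SE, adjusted p = 3.2e-05), and Btg4, an adaptor of the deadenylase that clears maternal mRNA, had 15 and 12.1 FPKM in 8-cell embryos, against 44 and 46.1 FPKM in 4-cell embryos (log2 difference -1.7 ± 0.18 SE, adjusted p = 6.8e-05). The exception was Khdc3 (FILIA, of the subcortical maternal complex), with 49.5 and 50.6 FPKM in 8-cell embryos, against 14.1 and 13.1 FPKM in 4-cell embryos (log2 difference 1.85 ± 0.13 SE, adjusted p = 8.7e-06). RNA decay and storage genes had 1 higher and 10 lower of 21, with 5 or 6 with any 1 of the 4 columns left out for the lower. The RNA-binding protein gene Igf2bp1 rose by 1.77, and Igf2bp3, Cnot6l, Dcp2 and Eif4e1b fell, at -1.23, -1.25, -1.2 and -1.1. The call was lost for Cnot6l (adjusted p up to 0.072) without 8-cell replicate 2. In the Obox and Pramel families the homeobox gene Obox8 had 79 and 69.7 FPKM in 8-cell embryos, against 267 and 265 FPKM in 4-cell embryos (log2 difference -1.83 ± 0.24 SE, adjusted p = 2.3e-04), whereas Pramel5 had 94.3 and 92.8 FPKM in 8-cell embryos, against 19.2 and 20.4 FPKM in 4-cell embryos (log2 difference 2.21 ± 0.12 SE, adjusted p = 3.5e-06).

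**Figure D3:**
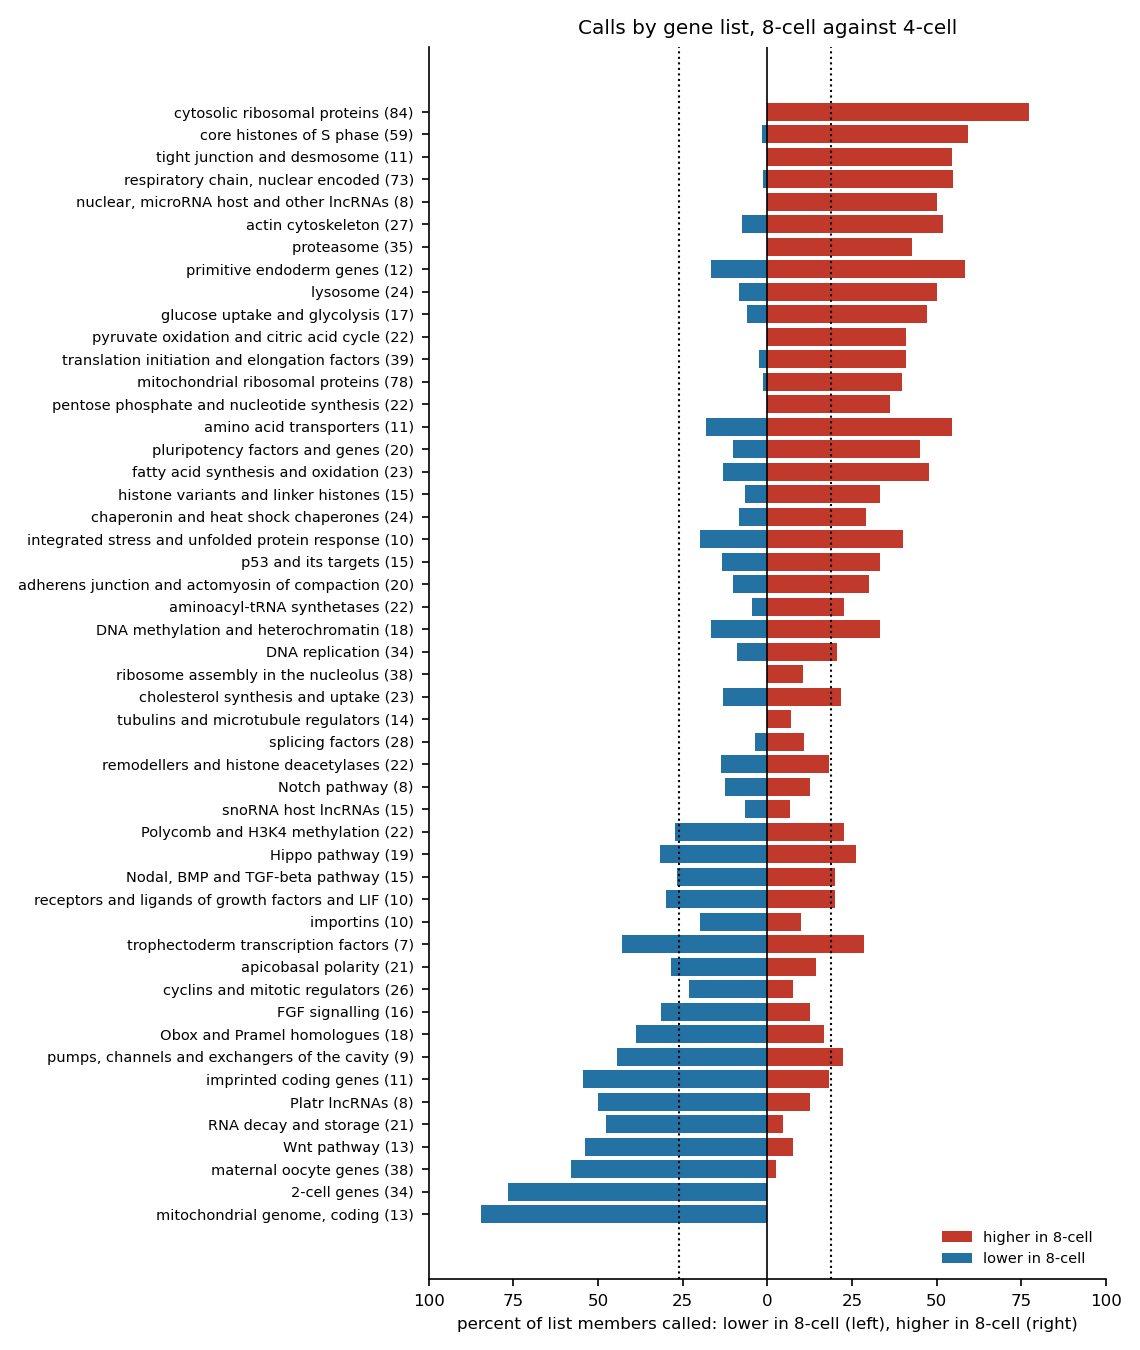
Percent of the members of each list that were called higher (bars to the right) and lower (bars to the left) in 8-cell embryos, with the number of members that passed the filter in brackets, for lists with 7 or more such members. Dotted lines mark the 18.7% higher and 26% lower over all 12667 rows, and cytosolic ribosomal proteins (65 of 84 higher) and the mitochondrial genome (11 of 13 lower) stand at the ends.

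**Figure D4:**
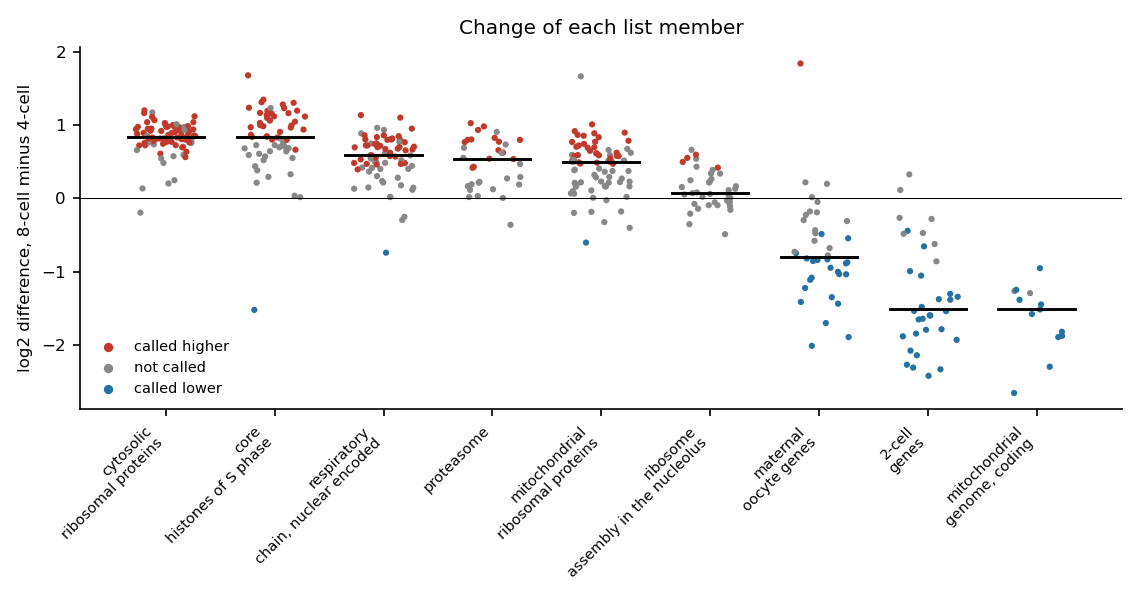
Log2 difference (8-cell minus 4-cell) of each member of 9 lists, 1 point each, coloured by call, with a line at the median. Cytosolic ribosomal protein genes lie around 0.84, nucleolar assembly genes around 0.08, and the genes of the 2-cell stage and of the mitochondrial genome around -1.51 and -1.52.

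The largest changes of single coding genes were sought among called rows with a mean of at least 5 FPKM in the higher stage and no overlap between stages. Ass1 (argininosuccinate synthase, of arginine synthesis) had 18 and 15.4 FPKM in 8-cell embryos, against 0.456 and 0.685 FPKM in 4-cell embryos (log2 difference 4.01 ± 0.17 SE, adjusted p = 5.8e-07). Sdc4, a cell surface heparan sulfate proteoglycan, had 20.0 and 17.1 FPKM in 8-cell embryos, against 1 and 0.984 FPKM in 4-cell embryos (log2 difference 3.67 ± 0.16 SE, adjusted p = 5.8e-07). Pdzd3, a PDZ scaffold of apical membranes, had 7.85 and 8.73 FPKM in 8-cell embryos, against 0.497 and 0.357 FPKM in 4-cell embryos (log2 difference 3.25 ± 0.11 SE, adjusted p = 2.3e-07). All 3 genes were near or below 1 FPKM in both 4-cell columns. Crip2, Perp (a desmosome-associated p53 target) and Akr1b8 rose by 3.24, 2.77 and 2.58. Among the most abundant genes, Calcoco2 had 1128 and 1125 FPKM in 8-cell embryos, against 316 and 316 FPKM in 4-cell embryos (log2 difference 1.83 ± 0.29 SE, adjusted p = 7.5e-04), and Alppl2, an alkaline phosphatase gene and the highest coding gene in 8-cell embryos, had 2917 and 2929 FPKM in 8-cell embryos, against 1780.4 and 1784 FPKM in 4-cell embryos (log2 difference 0.71 ± 0.21 SE, adjusted p = 0.024). This call was lost for Alppl2 (adjusted p up to 0.094) with any 1 of the 4 columns left out. The largest fall, that of Usp50, a ubiquitin protease family gene (0.0389 and 0.145 FPKM in 8-cell embryos, against 12.8 and 11.6 FPKM in 4-cell embryos, log2 difference -4.43 ± 0.18 SE, adjusted p = 5.8e-07), is uncertain, because the row with the largest rise of all lies inside it. That row is the processed pseudogene Gm10774, singled out after its values were seen, with 80.5 and 85.3 FPKM in 8-cell embryos, against 0.0472 and 0.0402 FPKM in 4-cell embryos (log2 difference 7.26, limma adjusted p = 1.4e-04). All 204 exonic bases of Gm10774 lie in an exon of Usp50 on the same strand, so reads of this locus could be given to either row, and which gene the RNA came from cannot be told from these values. Fam199x had 2.49 and 2.25 FPKM in 8-cell embryos, against 16.9 and 17.3 FPKM in 4-cell embryos (log2 difference -2.62 ± 0.27 SE, adjusted p = 6.4e-05), and Gdap1, a mitochondrial outer membrane gene, had 3.14 and 2.81 FPKM in 8-cell embryos, against 21.5 and 17 FPKM in 4-cell embryos (log2 difference -2.5 ± 0.16 SE, adjusted p = 6.9e-06). Slc19a3 (a thiamine transporter), Rrm2b (a ribonucleotide reductase subunit), Tcf19 and Trim61 fell as well, at -2.3, -2.22, -2.2 and -2.18.

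Values in the neighbouring stages place some of these changes; the neighbouring steps share the 4-cell or 8-cell columns, and only the tests of the difference between steps are given. Ass1 had mean levels of 0.0791 FPKM in late 2-cell, 0.57 in 4-cell, 16.7 in 8-cell, 52.8 in morula and 195 in blastocyst samples, and its 8-cell step exceeded the step before it (difference 3.13, adjusted p = 6.5e-05). The same test was passed by Cdx2 (difference 2.07, adjusted p = 0.0014) and Krt18 (difference 1.46, adjusted p = 0.018). Cdx2 went on to 24.8 FPKM in morula and 132 FPKM in blastocyst samples. For Gata6 and Nanog the step into the 4-cell stage was the larger, with differences between steps of -2.41 and -2.21 (adjusted p = 1.4e-05 and 1.7e-04), and for Cldn4 the difference between the steps did not pass (adjusted p = 0.32). The Usp50 row had 6.84 FPKM in late 2-cell, 12.2 in 4-cell, 0.0921 in 8-cell and 11.2 in morula samples, and the Gm10774 row inside it had 0.0626, 0.0437, 82.9 and 0.0551 FPKM at the same stages. Atp1b1 had 3.67 FPKM in 4-cell, 1.42 in 8-cell and 3.35 in morula samples, and 43.9 FPKM in blastocysts. Fgf4, Obox8 and Slc19a3 peaked at the 4-cell stage of this series, with late 2-cell means of 9.97, 26.6 and 42.5 FPKM, whereas Bmi1, Trim61 and Fam199x were highest in early or late 2-cell samples and lower at each step from there.

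**Figure D5:**
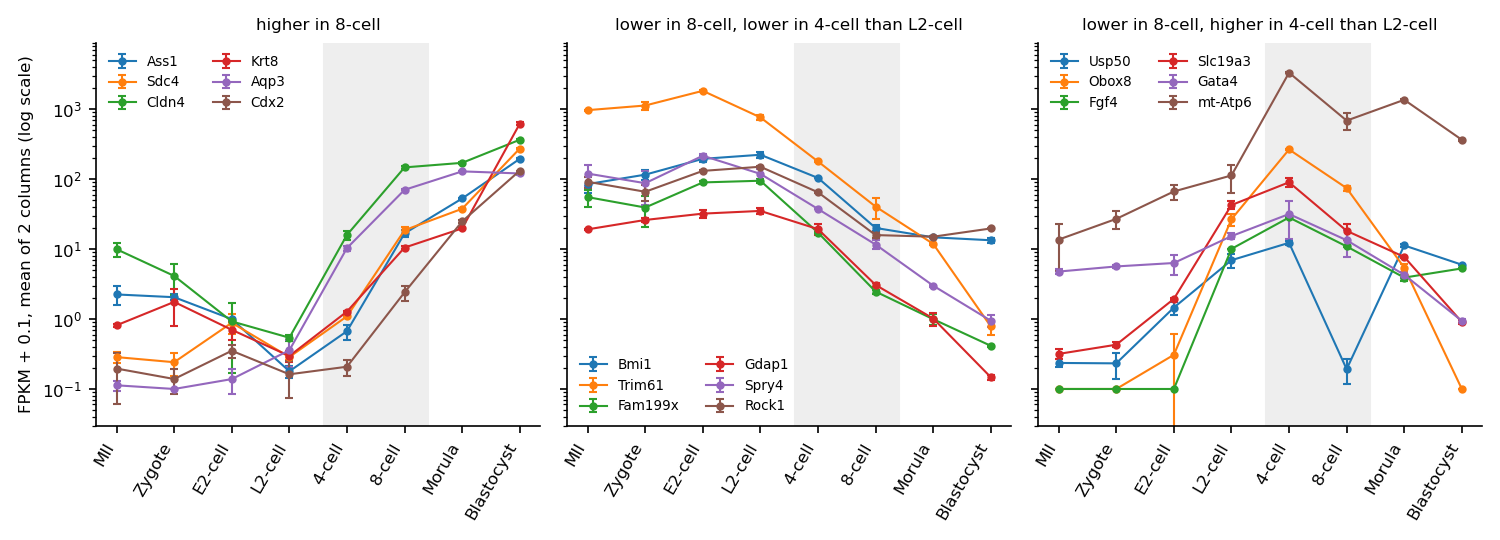
Mean FPKM + 0.1 on a log axis over the 8 stages in their order, with SD bars over the 2 columns of each stage, for 18 genes; the 4-cell and 8-cell stages are shaded. The first panel holds genes that went on to higher levels in blastocysts than in 4-cell embryos, the second genes already lower in 4-cell than in late 2-cell samples, and the third genes whose level in 4-cell embryos exceeded that in late 2-cell and 8-cell embryos, with the uncertain Usp50 row at 0.0921 FPKM in 8-cell embryos.

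Among long noncoding rows falls outnumbered rises. Of 682 loci named XLOC (assembled transcripts with no gene name in the table) 43 were higher and 346 lower, with a median of -0.68, and of 515 annotated lncRNAs 54 were higher and 222 lower, with a median of -0.52, against 1717 and 2501 of 9838 coding genes with a median of -0.1. XLOC_029547 had 5.48 and 3.73 FPKM in 8-cell embryos, against 16.7 and 22.6 FPKM in 4-cell embryos, and XLOC_038021 had 19 and 18.5 FPKM in 8-cell embryos, against 9.41 and 9.63 FPKM in 4-cell embryos. Among annotated lncRNAs Eprn, known from pluripotent cells, had 8.57 and 8.91 FPKM in 8-cell embryos, against 1.29 and 1.01 FPKM in 4-cell embryos (log2 difference 2.49 ± 0.11 SE, adjusted p = 6.9e-07), and B020004C17Rik had 10.0 and 7.1 FPKM in 8-cell embryos, against 41.3 and 47.4 FPKM in 4-cell embryos (log2 difference -2.32 ± 0.19 SE, adjusted p = 1.5e-05). Rmrp, the RNA of RNase MRP, had 1878 and 2967 FPKM in 8-cell embryos, against 635 and 477 FPKM in 4-cell embryos (log2 difference 2.1 ± 0.47 SE, adjusted p = 0.0058). This call was lost for Rmrp (adjusted p up to 0.054) without 8-cell replicate 2. Terc, the telomerase RNA, had 42.3 and 56.8 FPKM in 8-cell embryos, against 11.8 and 13.2 FPKM in 4-cell embryos (log2 difference 1.93 ± 0.21 SE, adjusted p = 8.4e-05). For both, 8-cell column 2, the column richer in small RNA, was the higher of the 2. Rn7sk, an RNA that restrains transcription elongation, had 14552 and 17237 FPKM in 8-cell embryos, against 10737 and 10049 FPKM in 4-cell embryos and was not called. The list of nuclear, microRNA host and other lncRNAs that holds these had 4 of 8 higher, and 2 without 8-cell replicate 2. Of 51 snRNA rows 21 were higher and 2 lower, and of 182 snoRNA rows 24 were higher (13.2%) and 15 lower. Among imprinted coding genes 2 of 11 were higher and 6 lower, against 18.7% and 26% of all rows. Snrpn and Gnas rose by 1.26 and 1.43, and Usp29 and Mest fell, at -1.34 and -0.84.

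Of 997 processed pseudogene rows 446 were higher and 92 lower, with a median of 0.65. Rows named as ribosomal protein pseudogenes were higher in 100 of 130 cases and lower in 1. Short reads cannot always be assigned between such copies and their parent genes. Some named coding genes also share exonic bases with another row. Igf2bp3, Rnf2 and Suv39h2 overlap Malsu1, Trmt1l and Dclre1c on the opposite strand, and the partners were called higher where the named genes were called lower. Tuba1a and Snrpn overlap uncalled rows on the same strand. Lats2 shares 42.4% of its exonic bases with Gm49361, and Khdc3 38.5% with Gm20509, both on the same strand and both called higher. Gm49361 had 3.19 and 3.15 FPKM in 8-cell embryos, against 0 and 0.111 FPKM in 4-cell embryos. Hist1h2be shares 11.2% of its exonic bases with Hist1h1e on the same strand. Hist1h1e was also called higher, with 147 and 128 FPKM in 8-cell embryos, against 86.0 and 92.2 FPKM in 4-cell embryos. Whether strand was used in counting is not stated, so these values are uncertain.

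Coding genes that differed in direction also differed in length and base composition, which no filter had used. The median longest transcript was 2364 bases for genes called higher, 4144 for those called lower and 3158 for those not called, and the median GC content was 52.8%, 47.0% and 49.8%. Of 551 genes with transcripts under 1 kb, 210 were higher (38.1%) and 44 lower (7.99%), and of 512 genes above 8 kb, 38 were higher (7.42%) and 219 lower (42.8%). Across the 9838 coding genes the log2 difference had a Spearman correlation of -0.31 with length and 0.28 with GC content, as a description over genes that share the same libraries. Zinc finger genes (symbols that start with Zfp, Zscan or Zkscan) were higher in 12 of 263 cases and lower in 99. Coding genes of the X chromosome were higher in 13.7% and lower in 32.6% of 307 cases, and those of chromosome 7 in 22.6% and 19.7% of 755, with the other autosomes between 12.1% (chromosome 12) and 21.7% (chromosome 15) higher. The shares lower of those autosomes ran from 21.5% (chromosome 11) to 35.5% (chromosome 12). Chromosomes 12 and 18 (35.3%) were thus lower more often than the X.

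Markers of cells other than blastomeres were low at both stages. Of 13 cumulus and granulosa markers 0 passed the filter, and their summed level was 0.198 and 0.125 FPKM in 8-cell embryos, against 0.497 and 0.542 FPKM in 4-cell embryos. Of 9 sperm and testis markers 1 passed, with sums of 1.24 and 0.687 FPKM in 8-cell embryos, against 2.64 and 2.46 FPKM in 4-cell embryos. Of 10 fibroblast and blood markers 1 passed and was not called, with sums of 4.28 and 2.43 FPKM in 8-cell embryos, against 3.7 and 3.76 FPKM in 4-cell embryos. Of 9 interferon response genes 1 passed, with sums of 1.77 and 1.4 FPKM in 8-cell embryos, against 2.95 and 2.86 FPKM in 4-cell embryos.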

How the data were processed

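Total RNA of pooled embryos was sequenced as paired reads. Per the labels' protocols, libraries were made with a stranded total RNA kit after removal of ribosomal RNA, or with a kit for small amounts of RNA, and the kit of each sample is not stated there. The authors deposited FPKM values per gene. Per the submitters' processing notes the tools were cutadapt 1.18, HISAT2 2.1.0, StringTie 1.3.4d, Cufflinks and Cuffdiff 2.2.1, on GRCm38. Of 43 columns of values 16 were used, 2 for each of 8 stages, and 27 were not used. Columns were matched to stages by name.

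From these values log2(FPKM + 0.5) was computed for the 19692 rows with at least 1 FPKM in 2 of the 16 columns, and limma 3.58.1 (R 4.3.3; lmFit, eBayes with a trend) was fitted to all 8 stages, so that they share an estimate of the spread. Differences are 8-cell minus 4-cell on that scale, which understates changes of low rows, and p-values are Benjamini-Hochberg adjusted over the 19692 rows, with a threshold of 0.05. The test was run on simulated data whose columns varied independently, which cannot show whether the real columns of a stage are separate collections. FPKM carries no counts, so no counting intervals are given. Tables and plots were made with Python 3.11.15, pandas 2.3.3 and Matplotlib 3.10.9. Gene positions and overlaps are from GENCODE release M21.

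The members and gene lists were chosen with earlier results of these data known. Named genes are members of the lists on junctions, polarity, lineage and cavity; of other lists up to 4 called in each direction and 3 uncalled ones; and the largest changes and highest levels. Alternatives changed the pseudocount, the filter, the scaling, the stages in the fit and the columns used. The overlap of named genes was examined after the values were seen. Some genes are not reported here.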

Additional observations from a re-analysis of the deposited data

How the results depend on the processing

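The number of rows called stayed within 1.5 times of 5658 under pseudocounts of 0.1 and 1 FPKM, without a filter, with the filter on the 4 columns, under both rescalings and in both smaller fits. With a minimum of 5 FPKM, 3445 rows were called, 1777 of them lower; fewer rows were tested there. In the fit of the 4-cell to blastocyst stages 3646 rows were higher, and the cause was not tested. Leaving out 1 column gave 3719 to 4286 calls, 1488 to 1662 of them higher and 2231 to 2624 lower, where the lone column is assumed to vary like the other stages. No paired analysis was possible because the 8-cell columns are numbered 1 and 2 and the 4-cell columns 3 and 4. With 2 columns per stage and depth known only by inference, low rows are the least certain. The difference of Ctnnb1, which was not called, was -0.13 with long-RNA scaling and -0.18 to 0.26 with 1 column left out. Of the 162 named genes called, 123 kept direction and call under every setting that tested them, of 13 settings, and 37 lost the call when some column was left out (20 without 8-cell replicate 1, 28 without 8-cell replicate 2, 22 without 4-cell replicate 3 and 27 without 4-cell replicate 4). Long-RNA scaling ended 11 calls. Of 116 counts of list members higher or lower, 38 to 42 moved by over 1.5 times with a column left out, 43 and 46 in the smaller fits, 34 with the minimum of 5 FPKM, 32 with long-RNA scaling and 14 with median-of-ratios scaling.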
